A study of Mus musculus with 28 samples.

Results

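A set of 10 genes that separate epithelial from mesenchymal cells were followed in RNA from vascular cells sorted out of mouse brain with and without metastases. They are 7 epithelial genes (Epcam, Cdh1, Cldn3, Cldn4, Cldn7, Esrp1 and Grhl2) and 3 transcription factors of the epithelial-mesenchymal transition (EMT; Zeb1, Snai2 and Twist1), chosen by name, 10 of the 53647 gene IDs in the count table. All 10 were found. The 28 libraries came from 15 mice or mouse pools, 13 of which gave both sorts. Every mouse was a PDGFRβ-CreERT2; Rosa-tdTomato animal given 2 mg of tamoxifen a day on 5 days, so that a Cre driven by PDGFRβ, a gene of pericytes, smooth muscle cells and some fibroblasts, turns on the red fluorescent protein tdTomato. Brain metastases (BrM) followed injection into the heart of brain-homing mouse cancer lines, PyMT-BrM3 of breast origin or Sv2T3-BrM1 of lung origin. Each origin thus rests on 1 cancer line. Non-tumor brain of the same genotype was the control, and the ages of the mice are not given in the sources used here. CD45-, CD11B- and EPCAM-positive cells were gated out first, which the protocol describes as removal of immune and cancer cells. The remaining cells were sorted as CD31-positive endothelial cells (the CD31 sort) or PDGFRβ-tdTomato-positive mural cells (the PDGFRb sort). The CD31 sort gave 5 non-tumor, 5 breast BrM and 5 lung BrM libraries and the PDGFRb sort 5, 4 and 4. In each sort 2 lung libraries carry labels that join 2 mouse numbers (55169-70 and 56195-56520) and were treated as pools.

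Epithelial cells hold together through E-cadherin (Cdh1) in adherens junctions, through claudins (Cldn3, Cldn4 and Cldn7) in tight junctions and through the adhesion molecule EpCAM (Epcam). The transcription factor Grhl2 and the splicing factor Esrp1 maintain that state. In EMT, factors such as Zeb1, Snai2 and Twist1 repress E-cadherin and related genes. Zeb1 and Snai2 recognise short E-box sequences. The same 3 factors are ordinary genes of many endothelial and mesenchymal cells, so their RNA in a sorted vascular cell does not by itself mark EMT. Normal brain vessels are not epithelial. Carcinoma cells, choroid plexus, ependyma and parts of the meninges can carry epithelial genes.

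The E-box letters CACCTG, whose reverse complement is CAGGTG, were searched in the RefSeq promoter windows of the members (GRCm38.p6, 250 bases before to 50 after each gene's start). Windows were at hand for 5 of the 10 genes, Epcam, Cldn3, Cldn4, Cldn7 and Twist1. The letters occur in 20.2% of all 32851 windows and at least 2 times in 2.9%. The 250 bases before the start are shown for Epcam, Cldn3 and Cldn4, which were all higher in breast BrM of the CD31 sort. They are written 5′ to 3′ along the gene's strand with each match in capitals, and none overlaps an annotated exon.
Epcam, chr17:87635729-87635978, plus strand: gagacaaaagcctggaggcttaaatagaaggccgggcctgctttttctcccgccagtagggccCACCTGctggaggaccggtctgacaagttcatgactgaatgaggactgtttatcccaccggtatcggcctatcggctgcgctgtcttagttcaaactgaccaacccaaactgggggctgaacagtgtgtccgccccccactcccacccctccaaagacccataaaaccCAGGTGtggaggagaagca
Cldn3, chr5:134985964-134986213, plus strand: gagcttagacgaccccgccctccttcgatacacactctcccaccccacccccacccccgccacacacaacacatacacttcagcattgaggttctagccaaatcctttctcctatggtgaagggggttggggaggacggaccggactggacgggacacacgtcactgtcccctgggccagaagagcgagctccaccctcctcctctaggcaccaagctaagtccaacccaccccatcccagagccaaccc
Cldn4, chr5:134946935-134947184, minus strand: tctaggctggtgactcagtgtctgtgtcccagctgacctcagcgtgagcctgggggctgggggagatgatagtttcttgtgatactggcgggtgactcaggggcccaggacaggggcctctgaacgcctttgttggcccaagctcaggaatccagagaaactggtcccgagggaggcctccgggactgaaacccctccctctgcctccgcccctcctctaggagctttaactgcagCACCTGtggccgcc
The Epcam window held 2 matches, whose first bases lie 187 and 19 bases before the start. Cldn4 held 2, 1 before the start and 1 after it, and Cldn3 held 1, which begins at base 32 after the start. Of the 2 annotated starts of Cldn7, 1 held 2 matches and the other held none, and the Twist1 window held none. These are matches of letters only; no binding was measured.

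Libraries held 7105172 to 23934042 gene counts, the shallowest being the PDGFRb library of breast BrM mouse 51950. Levels are given as CPM, counts scaled to the size of the library on a common TMM scale. Pecam1, the gene of CD31, lay at 591 to 1436 CPM in the 15 CD31 libraries and at most 11.5 CPM in the PDGFRb libraries. Pdgfrb lay at 302 to 1468 CPM in the PDGFRb libraries of non-tumor brain and breast BrM. In PDGFRb libraries of lung BrM it was only 35.9, 36.9 and 42.1 CPM in mice 55169-70, 54957 and 56195-56520, and 465 CPM in mouse 51435. Over 10 pericyte markers the summed level was 13577 to 24390 CPM in non-tumor, 5305 to 15034 in breast and 197, 299, 331 and 7577 CPM in lung libraries. Mouse 54135, a non-tumor animal, has titles and cell-type labels that name opposite sorts, and was grouped by title. Counts below are calls of edgeR's quasi-likelihood test at a Benjamini-Hochberg adjusted p under 0.05 over all genes tested. In bulk RNA, more cells of a type and more RNA per cell cannot be told apart.

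**Figure D1:**
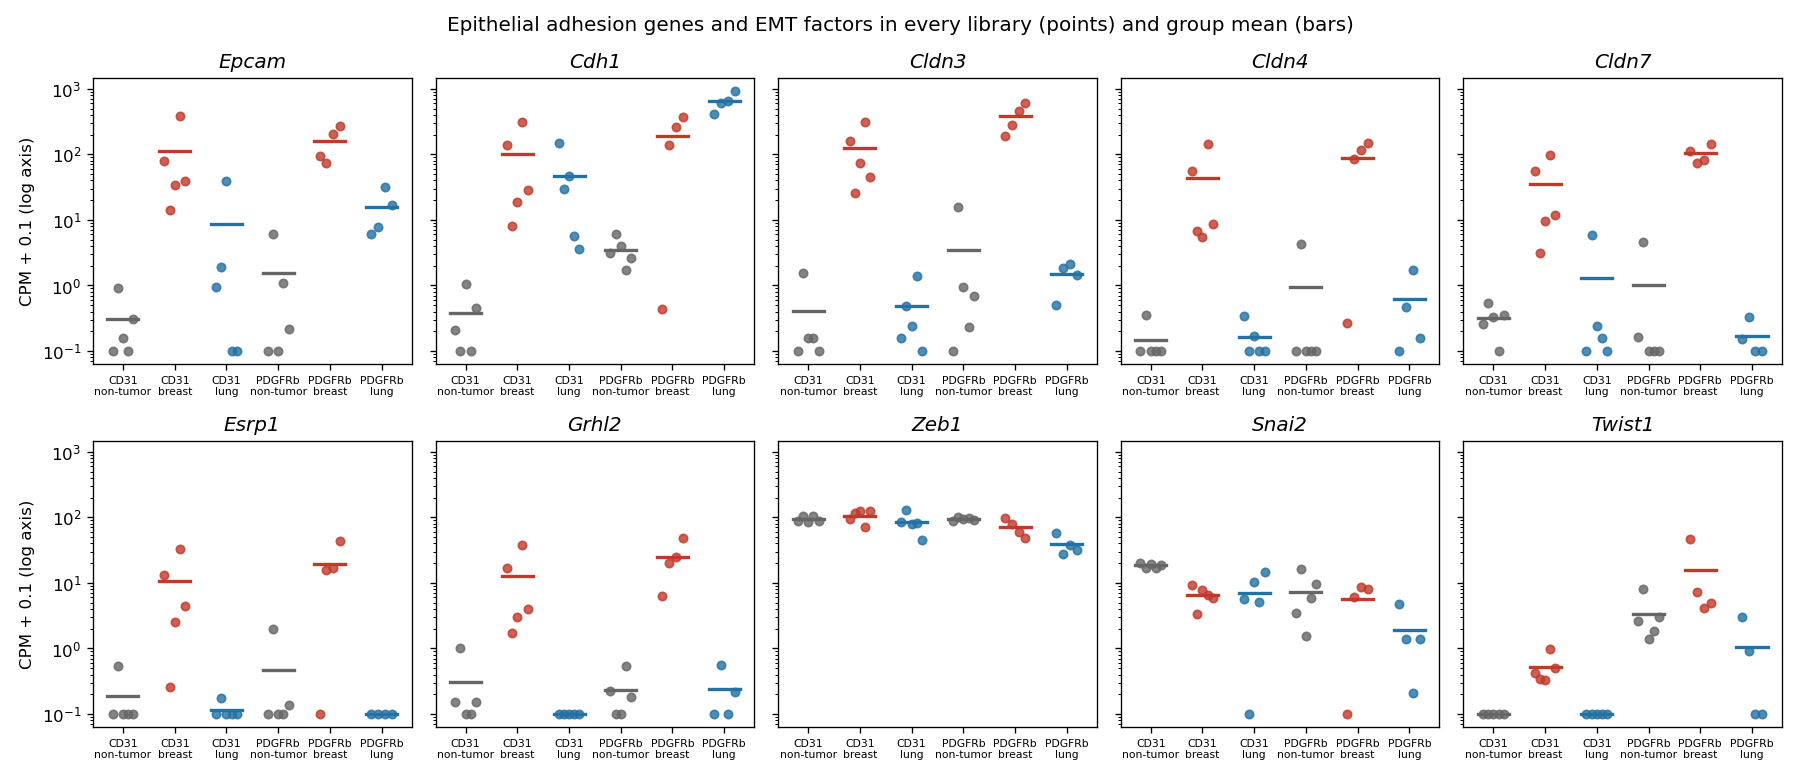
CPM plus 0.1 on a log axis for the 10 genes in each of the 28 libraries (points), with the mean of each group (bars). Most breast BrM libraries (red) are high for the 7 epithelial genes, apart from 1 PDGFRb library at 2 counts of Cdh1, 1 of Cldn4 and none of Esrp1 and 1 CD31 library at 2 counts of Esrp1, while lung BrM libraries (blue) are high for Cdh1 and mostly near the bottom of the axis for Cldn3, Cldn4, Cldn7, Esrp1 and Grhl2, and the lowest points sit at 0 counts.

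In breast BrM, most of the epithelial genes were higher than in controls. In the CD31 sort all 6 epithelial members that could be tested were higher than in non-tumor brain, against 18.6% of all genes tested, and the libraries of the 2 groups did not overlap for any of the 6 (18.0% of all genes were higher without overlap). Of 7 tested in the PDGFRb sort 5 were higher, against 6.3% of all genes. Keratins of simple epithelia rose as well: Krt8 averaged 272 ± 348 CPM (SD, n = 5) in the CD31 sort and 681 ± 350.2 CPM (SD, n = 4) in the PDGFRb sort, against 0.490 and 3.52 CPM in non-tumor brain. Of the 8 keratins listed, 6 were testable in each sort and 4 were called higher in each. The summed keratin level ranged from 99.9 to 1838 CPM in CD31 and 759 to 2885 CPM in PDGFRb libraries of breast BrM, against at most 6.22 and 43.3 CPM in non-tumor brain. The part of admixed epithelial cells in these levels was not tested.

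Epcam, the antigen of the exclusion gate, was at 0, 0, 0.0567, 0.204 and 0.808 CPM in the 5 non-tumor CD31 libraries and at 14.1, 33.9, 39.8, 79.6 and 389 CPM in those of breast BrM. Even the lowest breast library was far above the highest control. The log2 change was 9.10 ± 1.87 (SE, adjusted p = 0.0014, edgeR). Epcam of the PDGFRb sort was at 73.5, 92.6, 202 and 271 CPM in breast BrM against 0, 0, 0.119, 1.01 and 6.01 CPM in non-tumor brain, a log2 change of 6.83 ± 1.44 (SE, adjusted p = 0.011, edgeR). RNA of the gated antigen was thus present in all 9 breast libraries.

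Cdh1 was at 7.87, 18.8, 28.9, 138 and 312 CPM in CD31 libraries of breast BrM, against at most 0.964 CPM in non-tumor brain (log2 change 8.47 ± 1.47, SE, adjusted p = 0.00036, edgeR). Among PDGFRb libraries 3 of breast BrM were at 139, 258 and 366 CPM, while that of mouse 51950 was at 0.332 CPM, or 2 counts, below all non-tumor libraries (1.63 to 5.96 CPM). The groups therefore overlapped, although the change of 5.85 ± 1.05 (SE, adjusted p = 0.0043, edgeR) was called. With limma-voom the Cdh1 call of breast BrM was lost in both sorts (adjusted p = 0.056 and 0.063), as was that of lung BrM in the CD31 sort (adjusted p = 0.092).

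Cldn3 was the most abundant of the 7 per length in breast BrM, with a mean of 384 ± 202 FPKM (FPKM scales fragments by gene length and library size; SD, n = 4) in the PDGFRb sort, ahead of Epcam at 108 ± 65.8 and Cldn7 at 101 ± 41.6 FPKM. Esrp1 and Grhl2 were the least abundant, at 5.63 ± 5.51 and 6.43 ± 5.03 FPKM. Neighbours in this order overlapped in their spread. In CPM, Cldn3 was at 25.6, 45.7, 73.3, 159 and 315 in CD31 libraries of breast BrM against 0 to 1.43 in non-tumor brain (log2 change 8.75 ± 1.19, SE, adjusted p = 3.8e-05, edgeR). It was at 189, 284, 463 and 607 CPM in PDGFRb libraries against 0 to 15.4 CPM (6.85 ± 1.39, adjusted p = 0.0085).

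Cldn4 and Cldn7 followed in the CD31 sort, with means of 43.8 ± 59.4 and 35.7 ± 41.0 CPM (SD, n = 5) in breast BrM against 0.0497 and 0.216 CPM in non-tumor brain. Their log2 changes were 9.75 ± 1.39 (adjusted p = 6.1e-05, edgeR) and 7.39 ± 1.61 (adjusted p = 0.0022). Cldn7 of the PDGFRb sort changed by 6.83 ± 1.66 (adjusted p = 0.022), a call lost without breast mouse 53072 or non-tumor mouse 53680 (highest adjusted p = 0.055). Cldn4 there was at 0.166, 84.5, 118 and 149 CPM in breast BrM and missed the threshold (6.73 ± 2.09, adjusted p = 0.060). The low Cldn4 value was again mouse 51950, with 1 count, and without it the change was 7.17 (adjusted p = 0.012).

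Of the regulators, Grhl2 was called in both sorts and Esrp1 in neither. Grhl2 was at 1.61, 2.92, 3.96, 16.6 and 37.4 CPM in CD31 and 6.14, 19.8, 24.5 and 49.0 CPM in PDGFRb libraries of breast BrM, against at most 0.932 CPM in any non-tumor library. Its log2 changes were 5.96 ± 1.43 (adjusted p = 0.0071, edgeR) and 7.55 ± 1.44 (adjusted p = 0.0061). Esrp1 had too few counts for the CD31 fit; its breast libraries held 2, 43, 85, 277 and 556 counts against 7, 0, 0, 0 and 0 in non-tumor brain. Esrp1 of the PDGFRb sort was at 0, 15.6, 16.5 and 44.0 CPM and was not called (5.67 ± 1.99, adjusted p = 0.10), but was called without mouse 51950 (6.10, adjusted p = 0.037).

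The PDGFRb library of breast mouse 51950 was uneven over the members. It held 558 counts of Epcam, 1140 of Cldn3 and 673 of Cldn7, yet 2 of Cdh1, 1 of Cldn4, none of Esrp1 and none of Snai2. A count of 0 there allows up to 3 counts. It also had the highest Twist1 level of all libraries, 46.9 CPM. Whether its depth bears on this was not tested.

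In lung BrM the epithelial genes parted. Cdh1 was the only epithelial member called higher than non-tumor brain in the PDGFRb sort (1 of 7, against 9.91% of all genes) and, beside Epcam, 1 of 2 called of the 6 tested in the CD31 sort (against 20.4% of all genes). Yet keratins were at their highest: the summed keratin level was 5944 to 9679 CPM in PDGFRb libraries of lung BrM, and Krt8 alone averaged 3122 ± 686 CPM (SD, n = 4). The summed level in CD31 libraries was 96.3 to 2195 CPM. Keratins called higher than in non-tumor brain were 6 of 6 tested in the PDGFRb sort and 5 of 6 in the CD31 sort.

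Cdh1 reached 413, 613, 657 and 912 CPM in PDGFRb libraries of lung BrM, where the highest non-tumor library was at 5.96 CPM. The log2 change was 7.62 ± 1.13 (SE, adjusted p = 0.0006, edgeR). In CD31 libraries Cdh1 was lower and spread more, at 3.47, 5.59, 29.1, 46.9 and 151 CPM, a change of 7.38 ± 1.42 (adjusted p = 0.0008) with no overlap with non-tumor brain. Per length, Cdh1 averaged 160.5 ± 55.3 FPKM (SD, n = 4) in PDGFRb lung libraries, where no other epithelial member exceeded a mean of 11 FPKM.

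Epcam was low in lung BrM. It was at 5.94, 7.60, 16.8 and 31.9 CPM in PDGFRb libraries, and its change of 3.49 ± 1.25 was not called (adjusted p = 0.071, edgeR). Among CD31 libraries it was at 0, 0, 0.854, 1.80 and 39.8 CPM. The call there (5.33 ± 1.70, adjusted p = 0.023) rested on mouse 54957, without which the change was 1.67 (adjusted p = 0.39), and it was also lost without non-tumor mouse 53680, 54135 or 56727.

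The claudins and regulators were low in most lung BrM libraries. In CD31 libraries of lung BrM Cldn3 was at 0, 0.0610, 0.143, 0.392 and 1.3 CPM and Cldn4 at most 0.244 CPM, and in PDGFRb libraries Cldn3 was at 0.410, 1.35, 1.73 and 2.04 CPM and Cldn7 at most 0.226 CPM. Grhl2 had no count in any of the 5 CD31 libraries and Esrp1 none in any of the 4 PDGFRb libraries. Cldn7 was at 5.88 CPM in CD31 mouse 51697 and at most 0.143 CPM in the other 4 libraries. None of Cldn3, Cldn4, Cldn7, Esrp1 and Grhl2 was called against non-tumor brain in either sort where tested. The size and sign of some of these changes rested on non-tumor mouse 54132. Without it, Cldn3 went from 0.47 to 3.57 in the CD31 sort (adjusted p = 0.093, edgeR) and from -1.25 to 1.71 in the PDGFRb sort (adjusted p = 0.17). Cldn4 and Cldn7 of the PDGFRb sort went from -0.62 to 6.26 (adjusted p = 0.12) and from -3.70 to 1.81 (adjusted p = 0.39).

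**Figure D2:**
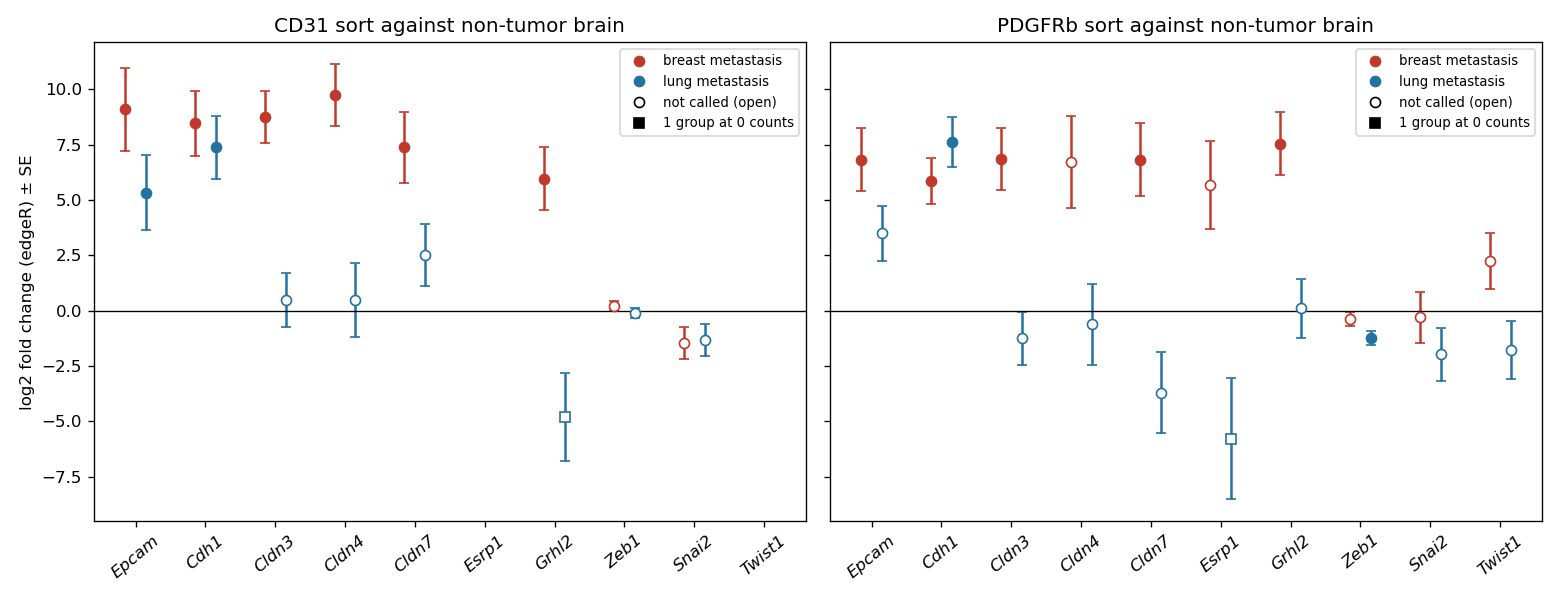
Fitted log2 fold changes of the members against non-tumor brain (points, bars 1 SE) in the CD31 sort (left) and the PDGFRb sort (right), for breast (red) and lung (blue) BrM; filled points passed an adjusted p of 0.05, squares have 1 group at 0 counts, where the fitted value depends on the prior count. Cdh1 is up by 5.85 to 8.47 in all 4 comparisons, whereas Cldn3 is up by 6.85 and 8.75 in breast BrM and lies at 0.47 and -1.25 in lung BrM (3.57 and 1.71 without non-tumor mouse 54132).

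Column names carry 6 dates of unstated meaning, and BrM and non-tumor libraries share a date in only 3 of them, 2 for breast and 1 for lung BrM, with 1 or 2 controls each. Within the shared dates of breast BrM, Cldn3 averaged 237 against 0 CPM and 48.2 against 0.0567 CPM in the CD31 sort, and 398 against 0 and 373 against 0.854 CPM in the PDGFRb sort. Within that of lung BrM, Cdh1 averaged 25.2 against 0.179 CPM in the CD31 sort and 763 against 2.09 CPM in the PDGFRb sort, Cldn3 of the PDGFRb sort 1.54 against 0.364 CPM, and Zeb1 of the PDGFRb sort 29.7 against 94.1 CPM. The breast and lung comparisons share their non-tumor libraries.

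Set directly against each other, lung BrM had less Cldn3 and Grhl2 RNA than breast BrM in both sorts, and less Cldn4 or Cldn7 RNA in 1 sort each. In the CD31 sort 3 epithelial members were lower in lung BrM (against 1.55% of all genes) and none was higher (against 0.578%), and in the PDGFRb sort 3 were lower (against 2.39%) and none higher (against 3.08%). Cldn3 was lower in both, by -8.28 ± 1.16 (SE, adjusted p = 0.0011, edgeR) and -8.10 ± 1.63 (adjusted p = 0.013). Cldn4 was lower in the CD31 sort (-9.26 ± 1.36, adjusted p = 0.0015) and Cldn7 in the PDGFRb sort (-10.53 ± 2.23, adjusted p = 0.016). Cldn4 of the PDGFRb sort and Cldn7 of the CD31 sort missed the threshold (adjusted p = 0.089 and 0.09). Epcam was not called in either sort. It differed by -3.77 ± 1.38 in the CD31 sort, with overlap of libraries (adjusted p = 0.2, edgeR). In the PDGFRb sort it differed by -3.34 ± 1.35, without overlap (adjusted p = 0.17).

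Grhl2, with no count in lung CD31 libraries, was at least 333-fold lower there than in breast BrM (adjusted p = 0.014, edgeR; bound from 3 counts over the group) and changed by -7.45 ± 1.61 in the PDGFRb sort (adjusted p = 0.017). Esrp1 was at least 471-fold lower in lung BrM of the PDGFRb sort without passing the threshold (adjusted p = 0.053). In the CD31 sort, where Esrp1 was not tested, 1 count stood in the lung group, a ratio of 842 with a counting interval of 151 to 33292. Cdh1 and Krt8 did not follow. Cdh1 differed by -1.09 ± 1.01 in the CD31 sort (adjusted p = 0.68) and 1.77 ± 0.97 in the PDGFRb sort (adjusted p = 0.32). Although not called, Cdh1 of the PDGFRb sort was higher in all lung than in all breast libraries (413 to 912 against 0.332 to 366 CPM). Krt8 differed by 0.19 ± 0.87 in the CD31 sort (adjusted p = 0.95) and 2.21 ± 0.60 in the PDGFRb sort (adjusted p = 0.048). This last call was lost without any 1 of 6 libraries, breast 51950, 52599 or 52865 or lung 54957, 55169-70 or 56195-56520 (highest adjusted p = 0.13).

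The Cldn7 and Grhl2 calls of the PDGFRb sort were lost without lung library 55169-70 or 56195-56520 (highest adjusted p 0.061 and 0.066), and no member was called without both. No date that the column names carry holds both breast and lung libraries, so date and origin cannot be told apart.

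Each epithelial member was also set against Krt8 of the same library, as the log2 ratio of counts with 0.5 added to both. The ratio gives a level per Krt8 RNA. It stands for a level per epithelial cell only if both cancer lines carry equal Krt8 per cell, which was not tested. Krt8 itself averaged 3122 CPM in lung and 681 CPM in breast PDGFRb libraries, and a difference in Krt8 enters each ratio. Exact two-sided permutation tests over libraries compared lung with breast BrM for 7 genes per sort, with p-values given unadjusted. In the CD31 sort the smallest possible p was 0.0079 and in the PDGFRb sort 0.029. Per 100 counts of Krt8, Cldn3 had 36.8 to 99.6 counts in the 9 breast libraries of both sorts, and at most 0.0973 in 8 of the 9 lung libraries. The exception, CD31 library 55169-70, had 3.43.

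Epcam, Cldn3, Cldn4, Cldn7, Esrp1 and Grhl2 all had lower ratios in CD31 libraries of lung BrM, by -7.03 to -9.20 on the log2 scale (permutation p = 0.0079 each, the smallest that 5 against 5 libraries allow). For Epcam, lung mouse 54957 had 22.5 counts per 100 of Krt8, close to the lowest breast library, mouse 51950, at 24.0. Many lung values are 0 counts (Grhl2 in all 5 libraries, Esrp1 in 4 of 5), so the sizes depend on the number added. With 5 added in place of 0.5 the differences were -5.65 for Epcam, -7.62 for Cldn3, -6.12 for Cldn4, -5.32 for Cldn7, -4.32 for Esrp1 and -4.87 for Grhl2, each with the same permutation p. Cdh1 per Krt8 was lower by -1.55 in the CD31 sort (permutation p = 0.024), with overlap. This last result was lost against Krt18 in place of Krt8 (permutation p = 0.095) and without breast mouse 51950, 53072 or 53142 (permutation p = 0.056 each).

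In the PDGFRb sort the ratios of Epcam (-5.77), Cldn3 (-10.46), Cldn7 (-12.91) and Grhl2 (-10.16) were lower in lung BrM (permutation p = 0.029 each, the smallest that 4 against 4 libraries allow). With 5 added they were -5.73, -10.14, -10.45 and -7.98. Esrp1 reached the same p, but it had no count in the 4 lung libraries or in breast mouse 51950. Their order came only from the number added and their Krt8 counts (43356 to 68868 against 2516), so no difference in Esrp1 is read from it. Cldn4 differed by -9.25 (permutation p = 0.057), by -11.26 without mouse 51950 and by -8.15 with 5 added (permutation p = 0.029 each). Cdh1 had 16.6 to 24.3 counts per 100 of Krt8 in the 4 lung libraries. In breast BrM it had 24.1, 30.6 and 48.5 in 3 libraries and 0.0795 in mouse 51950. The mean difference of 1.40 was not called (permutation p = 0.97), and without that mouse it was -0.70 (permutation p = 0.057).

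**Figure D3:**
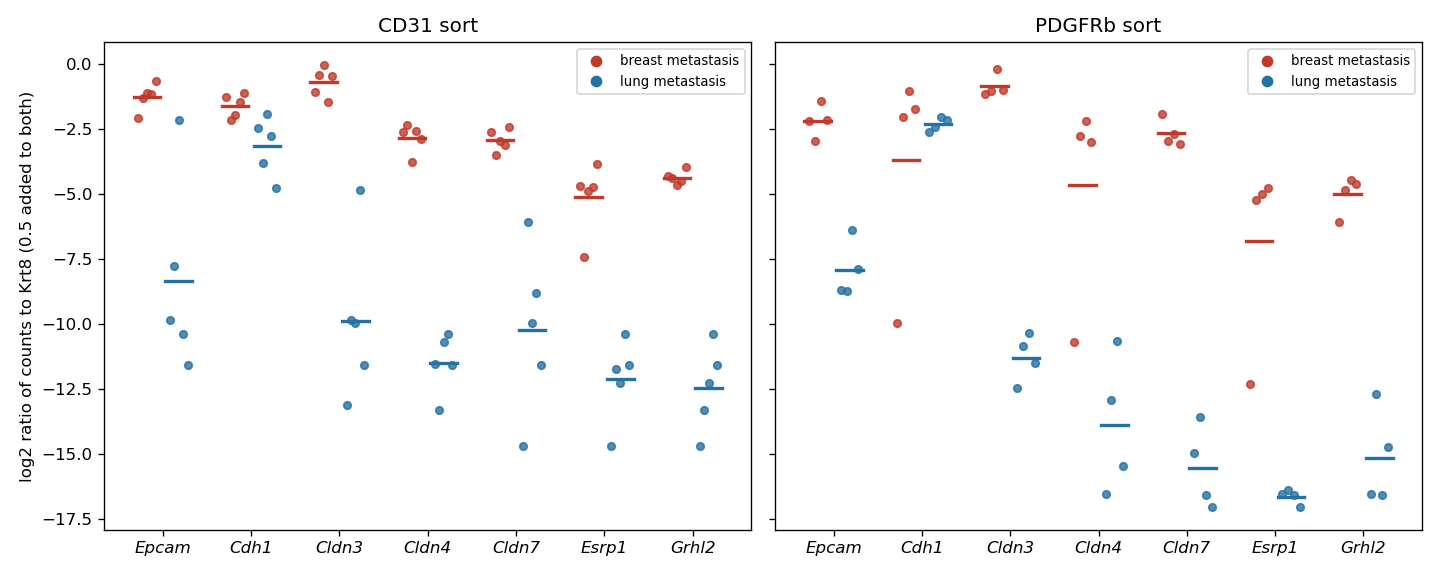
Log2 ratio of each epithelial gene's counts to those of Krt8 in the same library (0.5 added to both) for breast (red) and lung (blue) BrM in the CD31 sort (left) and the PDGFRb sort (right); bars are group means. Lung libraries lie below all breast libraries for Cldn3, Cldn7 and Grhl2 in both sorts; for Esrp1 of the PDGFRb sort the lung libraries and the lowest breast library hold 0 counts and differ only in Krt8, while Cdh1 overlaps in both.

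Non-tumor brain was not free of these genes. Mouse 54132 held the highest non-tumor level of Epcam, Cldn3, Cldn4, Cldn7 and Esrp1 in both sorts: in its PDGFRb library they were at 6.01, 15.4, 4.21, 4.52 and 1.85 CPM, together with Krt18 at 31.8 CPM. In the other 4 PDGFRb libraries Cldn4 had no count and Cldn7 and Esrp1 were at most 0.0631 CPM. Choroid plexus and ependymal markers, 9 in number, summed to 97.3 to 1133 CPM in non-tumor PDGFRb and 6.35 to 177 CPM in non-tumor CD31 libraries. Mouse 54132 was at 97.5 CPM in its PDGFRb library, near the lowest of that group. Its CD31 library, at 177 CPM, was the highest of its group. In PDGFRb libraries of BrM these markers summed to 0.166 to 58.4 CPM in breast and 606 to 969 CPM in lung. In the lung group 5 of the 9 averaged at least 1 CPM. Of 8 tested there, 1 was called higher and 1 lower than in non-tumor brain, with a median log2 change of -2.03 (9.91% and 7.58% of all genes). Arachnoid markers, 6 in number, summed to 470.4 to 2551 CPM in non-tumor PDGFRb libraries and 42.1 to 158 CPM in those of lung BrM. The library at 2551 CPM was that of mouse 54132. The part of these cell types in the epithelial levels was not tested.

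Comparing the sorts within a condition, Cdh1 was the epithelial member that differed most often. In non-tumor brain it was at 1.63 to 5.96 CPM in PDGFRb and 0 to 0.964 CPM in CD31 libraries, a difference of 3.53 ± 1.23 (SE, adjusted p = 0.031, edgeR) with no overlap. That call was lost without CD31 library 53680, 54132, 56727 or 56740 or PDGFRb library 54132 (highest adjusted p = 0.074, edgeR). In lung BrM the PDGFRb sort was higher by 3.78 ± 1.13 (adjusted p = 0.019). With the mouse as a replicate block, both differences kept their direction but missed the threshold, at 3.98 ± 1.51 (adjusted p = 0.080) and 5.10 ± 1.79 (adjusted p = 0.090). Cldn3 was higher in PDGFRb libraries of non-tumor brain (3.49 ± 1.25, adjusted p = 0.036), by only 0.46 without mouse 54132 in the PDGFRb group (adjusted p = 0.85).

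In all, 3 of the 10 members were higher in PDGFRb than in CD31 libraries of non-tumor brain (against 17.4% of all genes) and none lower (against 10.5%). In breast BrM 1 was higher (against 9.0%) and none lower (against 7.51%), and in lung BrM 2 were higher (against 10.2%) and 1 lower (against 9.36%). Over the 7 epithelial genes no difference between the sorts was called in breast BrM. Their differences there ran from 0.52 for Epcam to 1.64 for Cldn3, with standard errors of 1.05 to 1.48.

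In the CD31 sort only Zeb1 and Snai2 were tested, Twist1 having too few counts, and neither was called against non-tumor brain. There 18.6% of all genes were called higher and 11.4% lower in breast BrM, and 20.4% and 14.5% in lung BrM. In breast BrM of the PDGFRb sort none of the 3 EMT factors was called (6.3% of all genes higher, 2.69% lower). The single call was Zeb1, lower in PDGFRb libraries of lung BrM (against 7.58% of all genes).

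Zeb1, a zinc-finger repressor, was at like levels in both sorts of non-tumor brain. It averaged 93.9 ± 10 CPM in CD31 and 93.9 ± 4.99 CPM in PDGFRb libraries of non-tumor brain (SD, n = 5 each), a difference of 0.00 ± 0.25 on the log2 scale. In CD31 libraries it stayed at 106 ± 23.3 CPM in breast and 83.6 ± 29.5 CPM in lung BrM, changes of 0.21 ± 0.22 (adjusted p = 0.52, edgeR) and -0.11 ± 0.22 (adjusted p = 0.73). Over the 10 BrM libraries of this sort Zeb1 ranged from 9.96 to 28.5 FPKM and Cdh1 from 0.86 to 80.2 FPKM. The library with the most Cdh1, breast mouse 53072, had the least Zeb1 of its group, 19.0 FPKM. Lung library 56195-56520, however, had the least of both genes, 0.86 FPKM of Cdh1 and 9.96 FPKM of Zeb1.

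Zeb1 of the PDGFRb sort was at 87.4, 90.7, 94.3, 97.4 and 99.8 CPM in non-tumor, 48.8, 59.1, 78.8 and 98.5 CPM in breast and 27.8, 31.6, 38.2 and 58.1 CPM in lung libraries. Lung libraries did not overlap with non-tumor ones. The change in lung BrM was -1.24 ± 0.32 (SE, adjusted p = 0.017, edgeR), lost without lung mouse 54957 or 56195-56520 (highest adjusted p = 0.064), without both pools (adjusted p = 0.22) and without the filter on low counts (adjusted p = 0.054). Pericyte markers moved with it: the 3 lung libraries lowest in Zeb1 summed to 197, 299 and 331 CPM of those markers, and the highest, mouse 51435, to 7577 CPM. Their part in the result was not tested. Between the sorts of lung BrM, Zeb1 was lower in the PDGFRb sort by -1.10 ± 0.28 (adjusted p = 0.0054).

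**Figure D4:**
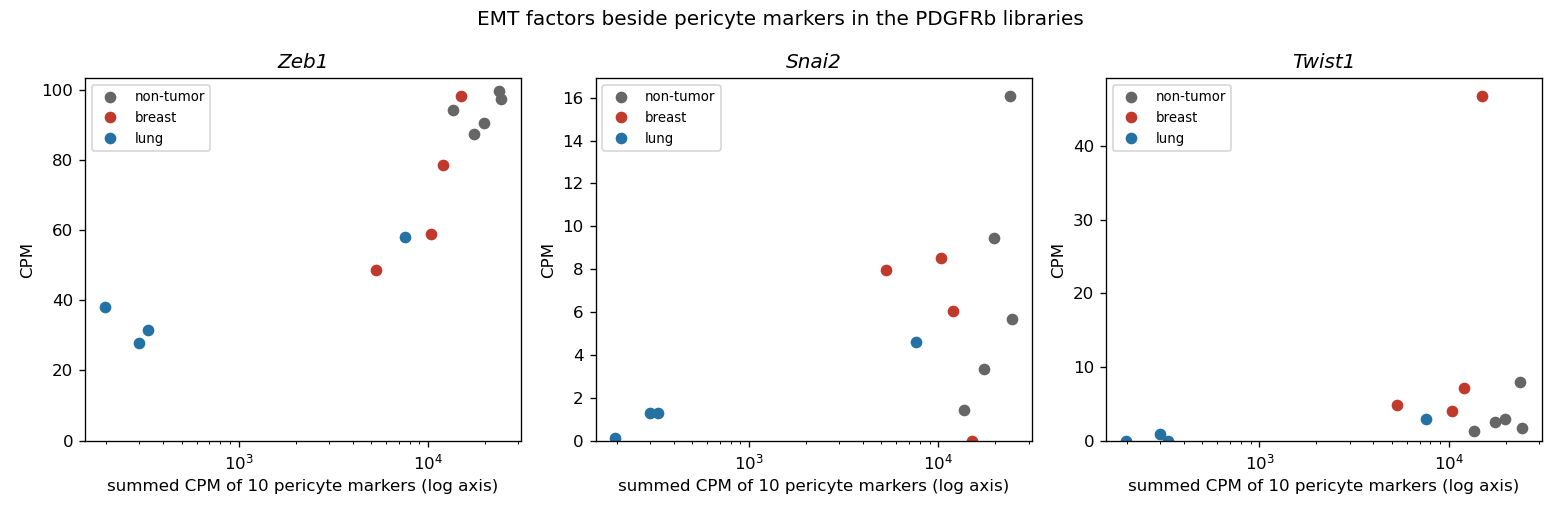
CPM of Zeb1, Snai2 and Twist1 against the summed CPM of 10 pericyte markers (log axis) in the 13 PDGFRb libraries. The 3 lung libraries with 197 to 331 CPM of pericyte markers hold the 3 lowest Zeb1 values, 27.8 to 38.2 CPM, and 1 breast library holds the highest Twist1 value, 46.9 CPM.

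Snai2, a Snail-family repressor also known as Slug, was highest in endothelial cells of non-tumor brain. There it was at 16.8, 17.0, 18.9, 19.5 and 19.8 CPM. In breast BrM it was at 3.21, 5.79, 6.41, 7.72 and 9.27 CPM and in lung BrM at 0, 5.03, 5.55, 10.2 and 14.4 CPM. Both BrM groups lay wholly below the non-tumor range, but neither change passed the test, at -1.47 ± 0.73 (adjusted p = 0.15, edgeR) and -1.32 ± 0.73 (adjusted p = 0.17). Snai2 of the PDGFRb sort varied within each group, from 1.44 to 16.1 CPM in non-tumor, 0 to 8.53 in breast and 0.110 to 4.61 CPM in lung libraries, with no call.

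Twist1, a basic helix-loop-helix factor, separated the sorts. It had no count in the 5 non-tumor or 5 lung CD31 libraries and 3, 4, 7, 8 and 15 counts in those of breast BrM, at least 12.5-fold above non-tumor and too few to be tested. In PDGFRb libraries of non-tumor brain it was at 1.3, 1.72, 2.53, 2.90 and 7.91 CPM, at least 94.3-fold above the CD31 sort (adjusted p = 0.00055, edgeR). In lung BrM it was at 0, 0, 0.828 and 2.97 CPM, at least 26.0-fold above the CD31 sort (adjusted p = 0.0064, and 0.086 with the mouse as a replicate block).

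In breast BrM the PDGFRb sort had Twist1 at 3.99, 4.85, 7.17 and 46.9 CPM, higher than the CD31 sort by 5.21 ± 1.33 (adjusted p = 0.011, edgeR). Without the library at 46.9 CPM, mouse 51950, the difference was 3.59 (adjusted p = 0.058), and with the replicate block it was 4.58 ± 1.3 (adjusted p = 0.095). Within the PDGFRb sort Twist1 did not pass the test in any comparison of conditions. Fibroblast markers, 11 in number, also peaked in that library, at 8755 CPM against 1753 to 5480 CPM in the other 3 breast libraries and 865 to 2510 CPM in non-tumor brain. Their part in the Twist1 level was not tested.

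Other genes of the pathway were counted from lists. For comparison, 18.6% of all genes rose and 11.4% fell in breast BrM of the CD31 sort, and 20.4% and 14.5% in lung BrM. In the PDGFRb sort the shares were 6.3% and 2.69% in breast, and 9.91% and 7.58% in lung BrM. Between lung and breast BrM of the PDGFRb sort, 3.08% of all genes were higher in lung and 2.39% lower. Of 30 other epithelial junction and polarity genes, 26 were tested in CD31 and 28 in PDGFRb libraries. In breast BrM 14 rose and 3 fell in the CD31 sort (median log2 change 3.88, all genes 0.04), and 13 rose and none fell in the PDGFRb sort (4.03, all genes -0.16). Among them were Spint1, a membrane protease inhibitor, at 17.1 and 63.9 CPM (8.08 ± 1.68, adjusted p = 0.0016, edgeR, and 6.75 ± 1.55, adjusted p = 0.016), and Marveld3, a tight junction protein (7.77 ± 1.43 and 8.10 ± 1.43). The summed level of the list nevertheless fell in the CD31 sort. It was 2807 to 3509.5 CPM in non-tumor, 1209 to 2203 in breast and 1328 to 2119 CPM in lung BrM libraries. CD31 libraries of non-tumor brain thus already carried genes of this list. Of 30 tested between the sorts there, 7 were lower in PDGFRb than in CD31 libraries and 3 higher (10.5% and 17.4% of all genes). The sum of the CD31 sort is therefore not a measure of epithelial RNA alone. In the PDGFRb sort the sum rose, from 237 to 303 CPM in non-tumor to 512 to 1846 in breast and 1316 to 2622 CPM in lung BrM.

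In lung BrM the same list gave 11 higher and 2 lower in the CD31 sort (median 1.37, all genes 0.00), and 15 higher and none lower in the PDGFRb sort (median 4.39, or 3.71 with genes at 0 counts set to their bound, all genes -0.03). Claudins differed among themselves. Cldn6, a claudin of early embryonic epithelia, averaged 112 CPM in PDGFRb lung libraries against 0.0216 CPM in non-tumor and 0.0178 CPM in breast libraries (12.10 ± 0.95, adjusted p = 3.3e-06, edgeR). Cldn1 was at 1.06 CPM in lung and 35.1 CPM in breast libraries (-5.03 ± 1.33, adjusted p = 0.042). The plakin Ppl was higher in lung than in breast BrM (84.2 against 5.50 CPM, 3.94 ± 0.95, adjusted p = 0.028), and the plakophilin Pkp3 was lower (2.64 against 40.4 CPM, -3.91 ± 0.68, adjusted p = 0.0052). In all, 4 genes of this list were higher and 2 lower in lung than in breast BrM of the PDGFRb sort.

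Of 16 other epithelial transcription and splicing regulators, 8 were tested in the CD31 and 13 in the PDGFRb sort. In the CD31 sort 5 rose in breast BrM and 3 rose and 1 fell in lung BrM (medians 5.78 and 2.95), and in the PDGFRb sort 8 rose and none fell in each (medians 6.38 and 5.22). Elf3, an epithelial ETS factor, rose in all 4 comparisons, by 6.21 to 9.40. Esrp2, the paralog of Esrp1, was at 92.5 CPM in PDGFRb libraries of breast BrM (7.52 ± 1.19, adjusted p = 0.0021, edgeR).

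Lung and breast BrM of the PDGFRb sort carried different regulators: 4 of the 13 were higher in lung BrM and 2 lower. Foxa2, a pioneer factor of endoderm, was at 59.2 against 0.428 CPM (6.97 ± 1.35, adjusted p = 0.011, edgeR). Elf5, a factor of mammary alveolar cells, had no count in lung BrM and 25.2 CPM in breast BrM, at least 578-fold lower (adjusted p = 0.016). Ovol1, an epithelial zinc-finger factor, was at 0.113 against 29.9 CPM (-8.04 ± 1.89, adjusted p = 0.025).

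Of 14 other EMT transcription factors, 7 were tested in CD31 and 12 in PDGFRb libraries. Snai1, the closest relative of Snai2, rose in CD31 libraries of breast and lung BrM, from 0.676 to 9.21 and 15.4 CPM (3.78 ± 0.59, adjusted p = 0.00013, edgeR, and 4.55 ± 0.61, adjusted p = 2.9e-05). Sox4 rose with it (3.32 ± 0.34 and 2.78 ± 0.33). With these the list had 3 higher and none lower in breast BrM and 2 higher and 1 lower in lung BrM of the CD31 sort (medians 0.28 and 0.32). All genes of that sort gave 18.6% higher and 11.4% lower in breast and 20.4% and 14.5% in lung BrM. The lung counts, out of 7 tested, are thus near the background.

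Among PDGFRb libraries none rose and 1 fell in breast BrM, and 1 rose and 3 fell in lung BrM (medians -0.73 and -1.68, all genes -0.16 and -0.03). Of all genes, 6.3% rose and 2.69% fell in breast and 9.91% rose and 7.58% fell in lung BrM, so 1 of 12 is near the background. Zeb2, the paralog of Zeb1, was among those that fell in lung BrM, from 90.6 to 13.5 CPM (-2.72 ± 0.55, adjusted p = 0.0045, edgeR), as did Tcf4 (-2.69 ± 0.47, adjusted p = 0.0019). Sox9 rose there, from 39.9 to 125 CPM (1.69 ± 0.50, adjusted p = 0.033). The low pericyte marker sums given above belong to these same libraries.

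Of 20 mesenchymal target genes of EMT, all tested in both sorts, 10 rose and none fell in breast BrM and 13 rose and none fell in lung BrM of the CD31 sort (medians 1.15 and 1.89). Tgfbi, a secreted matrix protein, rose from 0.0811 to 72.8 and 53.0 CPM (9.74 ± 0.60, adjusted p = 1.1e-08, edgeR, and 9.32 ± 0.60, adjusted p = 1.5e-08), and the matrix protease Mmp14 from 1.19 to 177 and 218 CPM. In the PDGFRb sort 3 rose in breast BrM (against 6.3% of all genes). In lung BrM of that sort 3 rose and 3 fell (against 9.91% and 7.58%), with medians of 1.25 in breast and -0.59 in lung BrM. Fibronectin, Fn1, rose in both, from 53.2 to 1317 and 2673 CPM (4.66 ± 0.38, adjusted p = 3.4e-05, and 5.70 ± 0.39, adjusted p = 1.3e-06), while the contractile genes Acta2 and Tagln fell in lung BrM (-3.93 ± 1.03, adjusted p = 0.018, and -3.88 ± 1.06, adjusted p = 0.022). Smooth muscle markers, 8 in number and including both, moved with them: 6 of 8 fell (median -3.46), and their sum was 6739 to 32117 CPM in non-tumor, 3203 to 13724 in breast and 214 to 4700.2 CPM in lung libraries. Their part in the result was not tested.

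Across the 28 libraries, which share their groups and their keratin level, the genes ranked most like each member (Spearman's rho of log2 CPM plus 1) were as follows. Epcam went with Spint1 (0.914), Plet1 (0.911) and Lrrc66 (0.903). Cdh1 went with Me1 (0.957), Plpp2 (0.947) and Tnnt2 (0.939). The 2 members ranked the libraries differently, with a rho of 0.607 between them, and Cdh1 with Cldn7 gave 0.129. Cdh1 gave -0.587 with Zeb1 and -0.487 with Snai2. The other epithelial members gave weaker values, from -0.145 (Epcam) to 0.2 (Esrp1) with Zeb1 and from -0.269 (Cldn3) to 0.152 (Esrp1) with Snai2. Zeb1 had no close match (Spen, 0.794), Snai2 went with Slc25a32 (0.902) and Twist1 with the chemokine Ccl11 (0.910), Cald1 (0.904) and Gas1 (0.902).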

How the data were processed

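RNA of sorted cells was made into libraries with SMART-Seq HT and Nextera XT kits, without molecular identifiers or strand marks, per the labels' protocols. Per the submitters' processing notes, the tools were RSEM 1.3.3, STAR 2.7.9a, limma 3.50.3 and edgeR 3.36.0, with build mm10. The deposited expected counts per gene (5.25% of values carry fractions) were rounded. The authors also deposited log2 values and FPKM for 18665 genes, used here as alternatives and, for FPKM, for levels between genes. Of 53647 gene IDs, 52093 received a symbol after the version was dropped. The annotation release is not given in the sources used here, so no coordinates of its gene models are printed. All table columns matched a sample.

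Counts were tested with edgeR 4.0.16 in R 4.3.3 (quasi-likelihood, robust, TMM, filterByExpr, Benjamini-Hochberg over all genes), within each sort for conditions (14876 genes in the CD31 and 17028 in the PDGFRb sort) and over 28 libraries for sorts (18548 genes). Of the 10 members, 8 passed the filter in the CD31 fit and 10 in the others. Esrp1 and Twist1 did not pass in the CD31 sort. The fits were also run on simulated data, in which only well expressed genes were changed. That run does not cover members with few counts in a group. Ratios to Krt8 used exact permutation tests; their p-values are not adjusted over the members, which were chosen with results known, although the planned design adjusted them. Bounds set a group without counts to 3 counts over the group. Intervals and bounds cover counting error only.

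Alternatives used DESeq2 1.42.0, limma-voom (limma 3.58.1), RLE and upper-quartile scaling, no filter or 1 CPM in at least 4 libraries, the deposited log2 values, log2 of FPKM plus 1 or 0.1, date as covariate, no pools, and each library left out. The same mouse number marks the same animal in both sorts, so numbers pair the samples by design. The correlation of paired deviations over 13 pairs ran from -0.08 to 0.24, with a median of 0 and 2 pairs above 0.1.

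The members and gene lists were chosen with earlier results of these data known. Named were all members, Krt8, Krt18, Pecam1, Pdgfrb, of each list up to 4 called genes per comparison with the largest change and at least 1 CPM, and 3 most similar genes each for Epcam, Cdh1, Zeb1, Snai2 and Twist1; a part of these is printed. Immune, astrocyte, neuron and oligodendrocyte and endothelial marker lists were summed as well; their ranges are given with the other observations. Labels call mice separate samples; the pools are counted as 1 sample each.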

Additional observations from a re-analysis of the deposited data

Results flagged for a closer look

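A library stood far from the rest of its group, by Dixon's criterion at the 95% level, in 18 of 60 groups of member and condition. Chance gives about 1 in 20 for independent, normally distributed values. These values include groups close to 0 counts and members that share libraries, so the number is not read against that rate. Of the 18, 11 were libraries of non-tumor mouse 54132. In its CD31 library these were Epcam at 0.808, Cldn3 at 1.43, Cldn4 at 0.249, Esrp1 at 0.435 and Grhl2 at 0.932 CPM. In its PDGFRb library they were Epcam at 6.01, Cldn3 at 15.4, Cldn4 at 4.21, Cldn7 at 4.52, Esrp1 at 1.85 and Twist1 at 7.91 CPM. The remaining non-tumor library was PDGFRb mouse 56727, with Grhl2 at 0.441 CPM.

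Among breast BrM libraries, CD31 mouse 53072 stood apart with Epcam at 389 and Twist1 at 0.874 CPM, and PDGFRb mouse 51950 with Twist1 at 46.9 CPM. Among CD31 libraries of lung BrM, mouse 54957 stood apart with Epcam at 39.8 CPM and mouse 51697 with Cldn7 at 5.88 and Esrp1 at 0.0784 CPM, the last being 1 count.

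The change from non-tumor brain differed between lung and breast BrM, by the test of the direct difference, for Cldn3 in the CD31 (-8.28) and PDGFRb sort (-8.10), Cldn4 in the CD31 sort (-9.26), Cldn7 in the PDGFRb sort (-10.53) and Grhl2 in the PDGFRb sort (-7.45, all on the log2 scale). Grhl2 in the CD31 sort, with no count in lung BrM, was at least 333-fold lower.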

How the results depend on the processing

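No member reversed its direction past the threshold under any alternative. Of 100 counts of called members recomputed under alternatives other than leaving out 1 library, 74 stayed within 1.5 times, 17 were lower and 9 higher; of 102 with 1 library left out the numbers were 87, 12 and 3. Counts of called members follow. CD31 lung against non-tumor had 2 calls, and 1 with date as covariate, the deposited log2 values, limma-voom, log2 FPKM plus 0.1 or plus 1, or no filter. CD31 lung against breast had 3, but 0 with date as covariate and 6 with the deposited log2 values or log2 FPKM plus 0.1. PDGFRb breast against non-tumor had 5, and 2 with date. PDGFRb lung against non-tumor had 2, but 0 with date and 1 with no filter or without the pooled lung mice. PDGFRb lung against breast had 3, but 0 with date or without the pools, 5 with the deposited log2 values or log2 FPKM plus 0.1, 6 with limma-voom, and 7 with DESeq2 or log2 FPKM plus 1, with or without a mean of at least 1. PDGFRb against CD31 had 3 calls in non-tumor brain, and 1 with limma-voom or no filter, and 1 call in breast BrM, and 3 with limma-voom. With the mouse as replicate block these counts were 2 in non-tumor, 0 in breast and 1 (from 3) in lung BrM, and no call was gained. The cause of these shifts was not tested, beyond the fewer libraries without the pools and the fewer degrees of freedom with date or mouse as a term. Over all genes, calls in CD31 lung against breast went from 317 to 0 with date (955 at an unadjusted p under 0.05) and 872 with DESeq2. With date they went from 4473 to 2291 and from 5182 to 1458 in CD31 breast and lung against non-tumor. In the PDGFRb sort, date and DESeq2 took them from 1531 to 115 and 3137 (breast against non-tumor), 2977 to 578 and 4483 (lung against non-tumor) and 931 to 102 and 2314 (lung against breast). Between sorts they went from 3063 to 1332 with the block in breast and from 3636 to 1179 without the pools in lung BrM.

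With 1 library left out, counts ranged from 6 to 7 in CD31 breast against non-tumor, 1 to 2 in CD31 lung against non-tumor and 3 to 5 in CD31 lung against breast. In the PDGFRb sort they ranged from 4 to 7, 1 to 3 and 1 to 5 in the same order. Between sorts they ranged from 1 to 3 in non-tumor, 1 to 1 in breast and 3 to 4 in lung BrM. Ratios to Krt8 that differed ranged from 6 to 7 of 7 in the CD31 and 4 to 6 in the PDGFRb sort (5 with all libraries, Esrp1 included). Upper-quartile scaling moved the median change over all genes of PDGFRb against CD31 in breast BrM from -0.04 to 0.1, and the share of higher calls from 54.5% to 65.5%. RLE scaling moved that median from 0.1 to 0.27 in non-tumor brain, and from -0.16 to -0.27 and -0.03 to -0.15 in breast and lung BrM against non-tumor of the PDGFRb sort, where DESeq2 called 49.4% and 45.6% higher (70.1% and 56.7% with edgeR). Depth limits the members near 0: in the shallowest library 3 counts correspond to 0.422 CPM before TMM scaling.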

Other observations

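Marker sums of other cell types, which enter no comparison above, were as follows. Endothelial markers, 10 in number, summed to 18513 to 20508 CPM in non-tumor CD31, 6419 to 13524 in breast and 9416 to 14002 CPM in lung BrM libraries, and to at most 1266 CPM in the PDGFRb sort. Immune markers, 10 in number, summed to at most 79.7 CPM in the CD31 sort and 203 CPM in the PDGFRb sort. Astrocyte markers, 8 in number, summed to 258 to 3585 CPM in non-tumor, 327 to 794 in breast and 145 to 347 CPM in lung BrM libraries of the PDGFRb sort. In the CD31 sort they were higher in BrM, at 108 to 189.5 CPM in non-tumor, 382 to 669.6 in breast and 285 to 591 CPM in lung libraries. Neuron and oligodendrocyte markers, 10 in number, summed to at most 57.1 CPM in the CD31 and 338 CPM in the PDGFRb sort.

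Plet1, whose levels followed those of Epcam, averaged 81.5 CPM in CD31 and 176 CPM in PDGFRb libraries of breast BrM, 3.82 and 35.5 CPM in those of lung BrM and 0.232 and 1.15 CPM in non-tumor brain. Tnnt2, a cardiac troponin gene that followed Cdh1, had no count in non-tumor CD31 libraries and averaged 55.4 CPM in PDGFRb libraries of lung BrM. Slc25a32, which followed Snai2, averaged 79.5 CPM in non-tumor CD31 libraries and 13.4 to 18.5 CPM in the other groups.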
